A study of Mus musculus with 36 samples.

Results

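Retinoic acid, the active form of vitamin A, reaches its target genes through a short chain of proteins, and 8 mouse genes of that chain were followed here out of 25239 genes counted in P-body and cytoplasm RNA. They were the retinol uptake receptor gene Stra6, the binding protein genes Crabp1 and Crabp2, the receptor genes Rara, Rarb, Rarg and Rxra, and the catabolic enzyme gene Cyp26a1. The genes were chosen by symbol, with their level and P-body enrichment in naive, primed and fibroblast cells already known, and in particular the differing enrichment of Crabp1 and Rarb between naive and primed cells. Values from those 3 cell types are therefore given below as descriptions with no test. Tests are given for the Ago2 knockout, the day 3 reprogramming cells and the DDX6 experiment, which had no part in the choice. All 8 symbols were found once in each of the 3 count tables.

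STRA6 lets retinol into the cell, where dehydrogenases oxidise it in successive steps to retinoic acid. CRABP1 and CRABP2 bind retinoic acid in the cytoplasm, and CRABP2 passes it to the nucleus. There the retinoic acid receptors (RARs) form heterodimers with the retinoid X receptors (RXRs) on DNA, hold corepressors when empty and recruit coactivators when bound by ligand. CYP26A1 oxidises retinoic acid and so removes it. Rarb and Cyp26a1 are classical direct targets of the receptors, and retinoic acid drives embryonic stem (ES) cells out of pluripotency.

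The study sequenced RNA of P-bodies, which are cytoplasmic condensates of translationally repressed RNA and protein, and of the cytoplasm they were sorted from. Per the study, this cytoplasm was a resuspended pellet of the lysate after removal of nuclei, taken before sorting. It therefore still held P-bodies and lacked the supernatant. All these cells carried a GFP-tagged LSM14A from a lentivirus under the EF1a promoter, the tag by which P-bodies were sorted. Naive ES cells (v6.5) were grown with the MEK inhibitor PD0325901, the GSK3 inhibitor CHIR99021 and LIF, primed ES cells with activin A and bFGF, and Ago2 KO ES cells were naive cells from single-cell clones with the Argonaute gene Ago2 deleted by paired guides. Mouse embryonic fibroblasts (MEFs) were uninduced, or were collected on day 3 of reprogramming while expressing either a control short hairpin RNA or one against Nudt21. The reprogrammed MEFs carried doxycycline-inducible reprogramming factors, the rtTA activator and an EGFP reporter under Pou5f1 elements. The study does not state plainly whether the uninduced MEFs carried them too. Nudt21 encodes a subunit of the cleavage factor that guides the choice of polyadenylation site. Each of these 12 groups had 2 libraries. In a second experiment polysome-bound and total RNA were taken from naive ES cells of single-cell clones in which DDX6, an RNA helicase that P-bodies need, was fused to an inducible degron. Per the study, the control cells were the same degron cells left untreated, so that both conditions share the genotype. In the others DDX6 was removed by an acute treatment with dTAG-13, of hours rather than days. The degron cells also carried the GFP-tagged LSM14A, and cycloheximide was given before harvest in both conditions. Each of those 4 groups had 3 libraries.

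ES cell P-body and cytoplasm libraries held 6769731 to 12772246 reads, MEF and day 3 libraries 19384742 to 31185874, Ago2 KO libraries 15624401 to 17486268 and polysome and total libraries 13308782 to 29362195. A level is given in CPM, the reads of a gene per 1000000 reads of its library. Fold changes come from edgeR after TMM scaling, which lowered polysome values against total RNA by 0.17 (control) and 0.18 (degron) on the log2 scale relative to library totals, and raised naive P-body values against naive cytoplasm by 0.22. The summed CPM of 7 naive markers was 1874 to 2067 in naive cytoplasm and 131 to 133 in primed cytoplasm, and that of 7 fibroblast markers was 33127 to 36244 in MEF cytoplasm and 52.2 to 78.1 in naive cytoplasm. Nudt21 was at 89.1 and 92.2 CPM in day 3 control cytoplasm and at 5.74 and 4.99 CPM after its knockdown. Ago2 was at 2.57 to 4.52 CPM in the 4 Ago2 KO libraries. Ddx6 RNA was at 208 to 238 CPM in control and 186 to 199 CPM in degron total RNA, and says nothing of the protein, which is what the degron removes. Replicates differed most (chi-square per degree of freedom) in Ago2 KO cytoplasm (334), day 3 control P-bodies (52.1), Ago2 KO P-bodies (44.6) and naive cytoplasm (29.9), beside 1.82 in naive P-bodies. In Ago2 KO cytoplasm replicate 2 the ribosomal gene Rn18s-rs5 took 24.0% of the counts.

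The 8 genes lie on 7 chromosomes of mm10 and all are protein coding. Stra6 and Crabp1 are both on chromosome 9, at positions 58063788 to 58153996 and 54764748 to 54773110. Crabp2 lies on chromosome 3 (87948666 to 87953376), Rara on 11 (98927818 to 98974942), Rarb on 14 (16430839 to 16819156, minus strand), Rarg on 15 (102234938 to 102257517, minus strand), Rxra on 2 (27676440 to 27762957) and Cyp26a1 on 19 (37697798 to 37701536). The binding protein transcripts were the shortest, at 802 bases for Crabp1 and 931 bases for Crabp2. Rarb had the lowest GC content at 47.8%, above that of 38.2% of the genes tested in primed cells, and Rara the highest at 59.2%, above that of 93.1%.

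Rarb was the only one of the 8 genes whose exons overlapped those of another annotated gene. In GENCODE the longest transcript of Top2b, on the plus strand, runs through the last 3 exon blocks of Rarb and shares 1793 bases with them, whereas the RefSeq models of both genes end 51 bases apart. The P-body and cytoplasm libraries did not keep strand and were counted on RefSeq genes, so reads from a long Top2b transcript cannot be told apart from Rarb reads there. Top2b itself is given beside the Rarb values below.

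RefSeq promoter windows (GRCm38.p6, 250 bases before to 50 after the start) were at hand for 7 of the 8 genes. Crabp2 was the exception. The windows were searched on both strands for 2 half-sites in direct repeat with 5 bases between them, an arrangement bound by RAR and RXR. Each half-site was AGGTCA, or AGTTCA, or GGGTCA, or GGTTCA. A search with 2 bases between the half-sites found repeats in 0.268% of windows, none of them of a member or listed pathway gene. A repeat with 5 bases between was found in the windows of Rarb and Cyp26a1, and in 0.0974% of all 32851 windows. No other member or listed pathway gene held one. Both are shown on the minus strand with 6 flanking bases on each side and the half-sites in capitals, at chr14:16575507-16575535 and chr19:37697770-37697798. The Rarb repeat lies 36 bases and the Cyp26a1 repeat 15 bases before the transcription start.
Rarb: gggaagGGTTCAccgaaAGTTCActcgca
Cyp26a1: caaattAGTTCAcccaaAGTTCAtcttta

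Both sites share the second half-site and differ in the first. A match of letters in this window is a description and not evidence of binding.

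**Figure D1:**
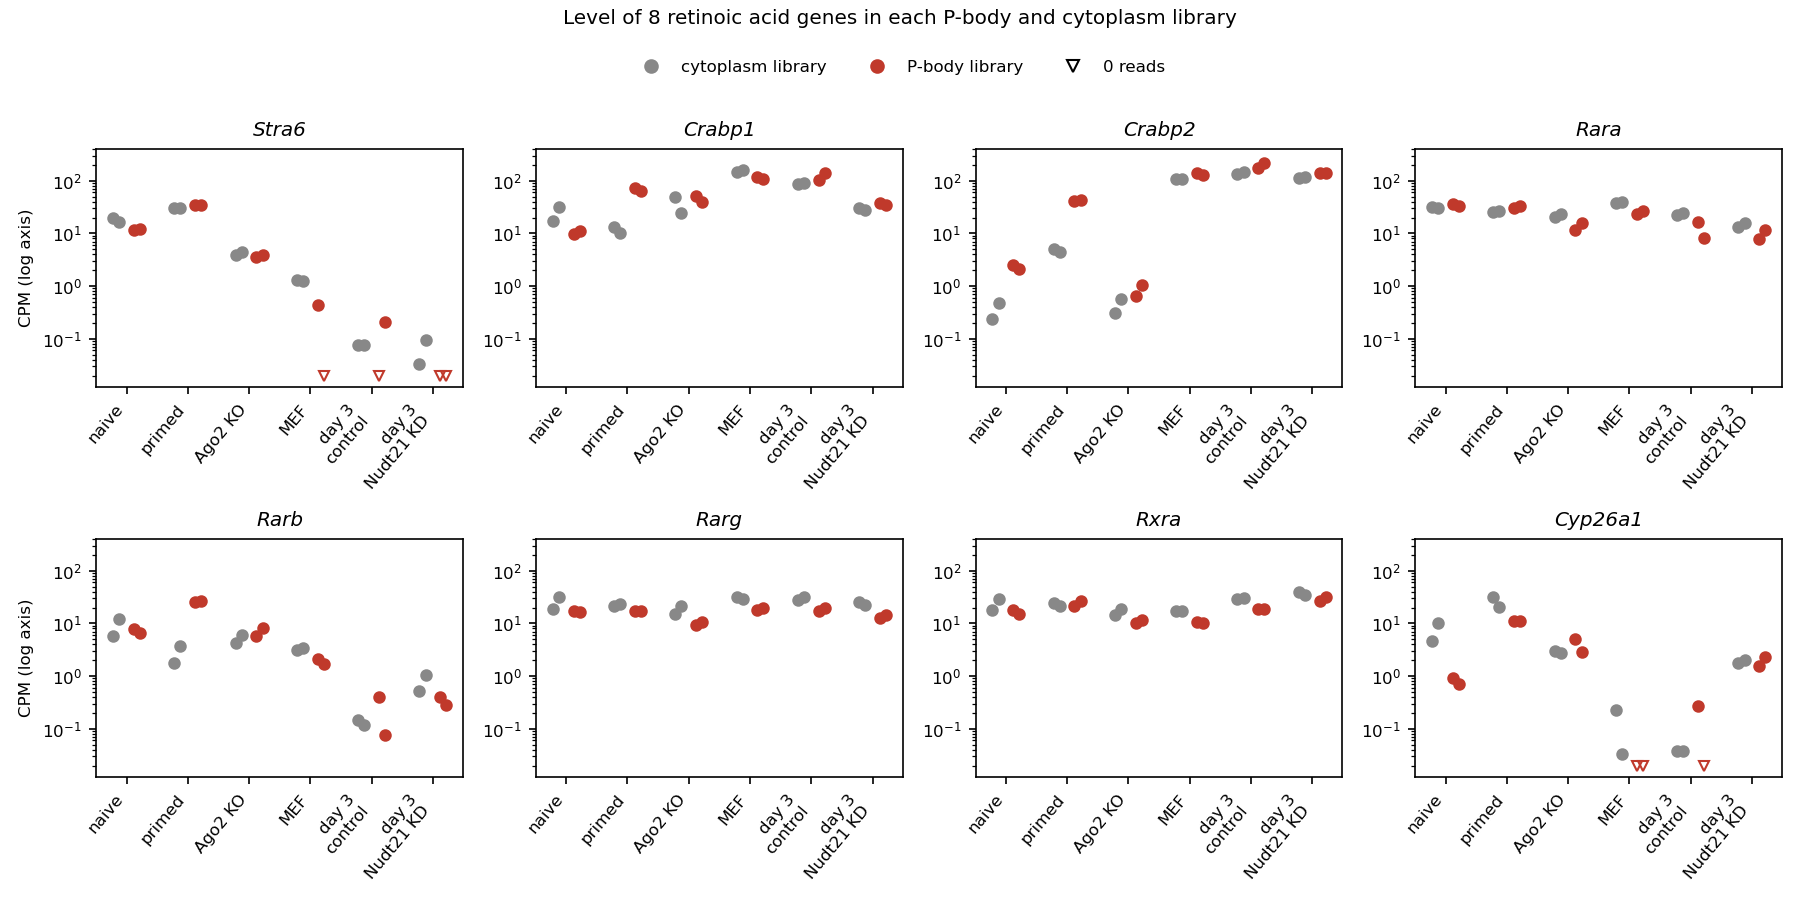
Level of each of the 8 genes in CPM (log axis) in the 12 P-body and cytoplasm groups, 1 point per library, 2 libraries per group, with open triangles for libraries with 0 reads. Crabp2 spans from 0.235 CPM in naive cytoplasm to 214 CPM in day 3 control P-bodies, whereas Rara, Rarg and Rxra stay between 7.72 and 40.3 CPM in all these libraries.

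The uptake receptor Stra6 was an ES cell transcript in these libraries. Its level in naive cytoplasm was 19.7 and 16.1 CPM, and in primed cytoplasm 29.7 and 30.8 CPM. In MEF cytoplasm it was 1.31 and 1.26 CPM, and at day 3 only 2 reads were counted in each control cytoplasm library, where 3 reads would be 0.112 and 0.115 CPM. The ES cell and fibroblast ranges did not overlap. As these are bulk samples, fewer cells expressing a gene and less RNA per cell cannot be told apart. P-body levels of Stra6 were 11.8 and 11.9 CPM in naive and 34.2 and 34.4 CPM in primed cells, an enrichment of −0.38 ± 0.20 (log2 fold change ± SE, n = 2 against 2) in naive and 0.21 ± 0.11 in primed cells. In MEFs the P-body libraries held 11 and 0 Stra6 reads against 41 and 38 in the cytoplasm, and the log2 difference was −2.57 ± 0.94. That value rested on single libraries, and was −8.24 without P-body replicate 1 and −1.56 without P-body replicate 2.

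Crabp1 was lower in P-bodies than in cytoplasm in naive cells and higher in primed cells. Naive cytoplasm held 16.8 and 31.3 CPM and naive P-bodies 9.93 and 11.3 CPM, with the P-body libraries the lower (−0.95 ± 0.30). Primed cytoplasm held 13 and 10.2 CPM and primed P-bodies 71.3 and 63.4 CPM, with the P-body libraries far higher (2.58 ± 0.13). The difference between the enrichments, primed minus naive, was 3.66 ± 0.37. The cytoplasmic level was lower in primed than in naive cells (log2 fold change −1.24 ± 0.32). MEF cytoplasm had the highest Crabp1 level of all groups, 147 and 158 CPM, with 118 and 107 CPM in P-bodies (−0.46 ± 0.10).

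Crabp2 was scarce in naive cells and among the most abundant of the 8 genes in fibroblasts. Naive cytoplasm libraries held 3 and 6 reads of it (0.235 and 0.486 CPM), which is at or near the floor of 3 reads, and naive P-bodies 27 and 26 reads (2.51 and 2.07 CPM). The ratio of the pooled reads was 6.34 (95% exact interval 3.10 to 14.6, counting error only). Primed cytoplasm held 5.02 and 4.49 CPM and primed P-bodies 41.3 and 43.8 CPM, an enrichment of 3.20 ± 0.15 beside 2.86 ± 0.52 in naive cells. Both ES cell states had more Crabp2 in P-bodies, and the difference between their enrichments was 0.48 ± 0.49. MEFs held 106 and 108 CPM in the cytoplasm and 138 and 126 CPM in P-bodies, an enrichment of only 0.28 ± 0.09.

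Of the receptors, Rarb had the largest P-body enrichment in primed cells. Its naive P-body levels of 7.99 and 6.61 CPM lay between the 5.72 and 12 CPM of the naive cytoplasm (−0.05 ± 0.37). In primed cells the P-body libraries held 25.8 and 26.1 CPM and the cytoplasm 1.77 and 3.74 CPM (3.23 ± 0.23), and the difference between the enrichments was 3.43 ± 0.52. In MEFs the P-body level of 2.15 and 1.66 CPM was below the 3.06 and 3.47 CPM of the cytoplasm (−0.80 ± 0.29). Top2b, whose long transcript crosses the end of Rarb, had a log2 enrichment of 0.07 ± 0.11 in naive, −0.42 ± 0.07 in primed and −1.10 ± 0.09 in MEF cells. In primed cells the 2 genes thus lay on opposite sides of 0, and in MEFs on the same side.

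Rara, Rarg and Rxra, the widely expressed receptors, moved much less. Rara was at 31.2 and 29.8 CPM in naive cytoplasm, 25.3 and 26.9 CPM in primed cytoplasm and 37.7 and 40.3 CPM in MEF cytoplasm, with enrichments of 0.40 ± 0.13, 0.32 ± 0.11 and −0.65 ± 0.11. Rarg was at 18.4 and 32.0 CPM, 21.0 and 23.7 CPM, and 31.7 and 29.5 CPM in the same order, with enrichments of −0.33 ± 0.26, −0.34 ± 0.13 and −0.72 ± 0.12. Rxra, the shared heterodimer partner, was at 18.2 and 29 CPM, 24.2 and 21.6 CPM, and 17.4 and 17 CPM, with enrichments of −0.29 ± 0.24, 0.10 ± 0.14 and −0.74 ± 0.14. All 3 were lower in every MEF P-body library than in every MEF cytoplasm library, as were 39.1% of all genes.

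Among the members, Cyp26a1 had the lowest P-body enrichment in naive cells and also in primed cells. This did not hold in the Ago2 KO cells described below, where its log2 difference was 0.40 ± 0.40. Naive P-bodies held 0.928 and 0.716 CPM against 4.62 and 9.97 CPM in the cytoplasm (−2.91 ± 0.50). Primed P-bodies held 11.2 and 11 CPM against 31.8 and 20.7 CPM (−1.19 ± 0.19), so its level was higher in primed cells in both fractions. MEF cytoplasm held 7 and 1 reads, MEF P-bodies 0 and 0 reads, and the gene was below the limit of 10 reads for a fit there. The pooled naive cytoplasm level was 55.6 times that of MEF cytoplasm (exact interval 27.6 to 131, counting error only).

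Counted over the members that could be fitted, 2 of 8 had a log2 enrichment above 0 in naive, 6 of 8 in primed and 1 of 7 in MEF cells, with medians of −0.31, 0.27 and −0.72 beside −0.06, 0.00063 and 0.03 over all genes. All 8 had a primed minus naive difference above 0, but those of Rara (0.06 ± 0.17), Rarg (0.14 ± 0.31) and Crabp2 were within their SE and turned below 0 when single libraries were left out, that of Rara also under other settings. In the fits of all genes, 38.0% of naive, 50.7% of primed and 55.3% of MEF genes were called at an adjusted p under 0.05, as were 25.3% for the primed minus naive difference. Between cytoplasm libraries, 3 of 8 members were higher in primed and 4 of 8 in MEF than in naive cells, with medians of −0.30 and 0.17, and 43.8% and 71.8% of all genes were called. The genes were chosen on these contrasts, so nothing is read from the counts. The naive cytoplasm library replicate 2 gave higher Crabp1, Rarb, Rarg, Rxra and Cyp26a1 levels than replicate 1, and lower Rara and Stra6 levels. Without it the naive log2 enrichment was −0.46 for Crabp1, 0.54 for Rarb and −2.29 for Cyp26a1, and Rarg (0.08) and Rxra (0.04) lay above 0. Without replicate 1 the values were −1.29, −0.46 and −3.34. The 2 MEF P-body libraries held the lung secretory cell gene Scgb1a1 at 3.59 and 43.6 CPM, while MEF cytoplasm held 0 and 0.5 reads. Over 4 lung epithelial markers the summed level was 5.69 to 87.5 CPM in MEF P-bodies, with 2 of 4 at 1 CPM or more in both libraries, and 0.0641 to 0.183 CPM in the cytoplasm, with Sftpc and Sftpa1 at 0. The part of other cells in the MEF enrichments was not tested.

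**Figure D2:**
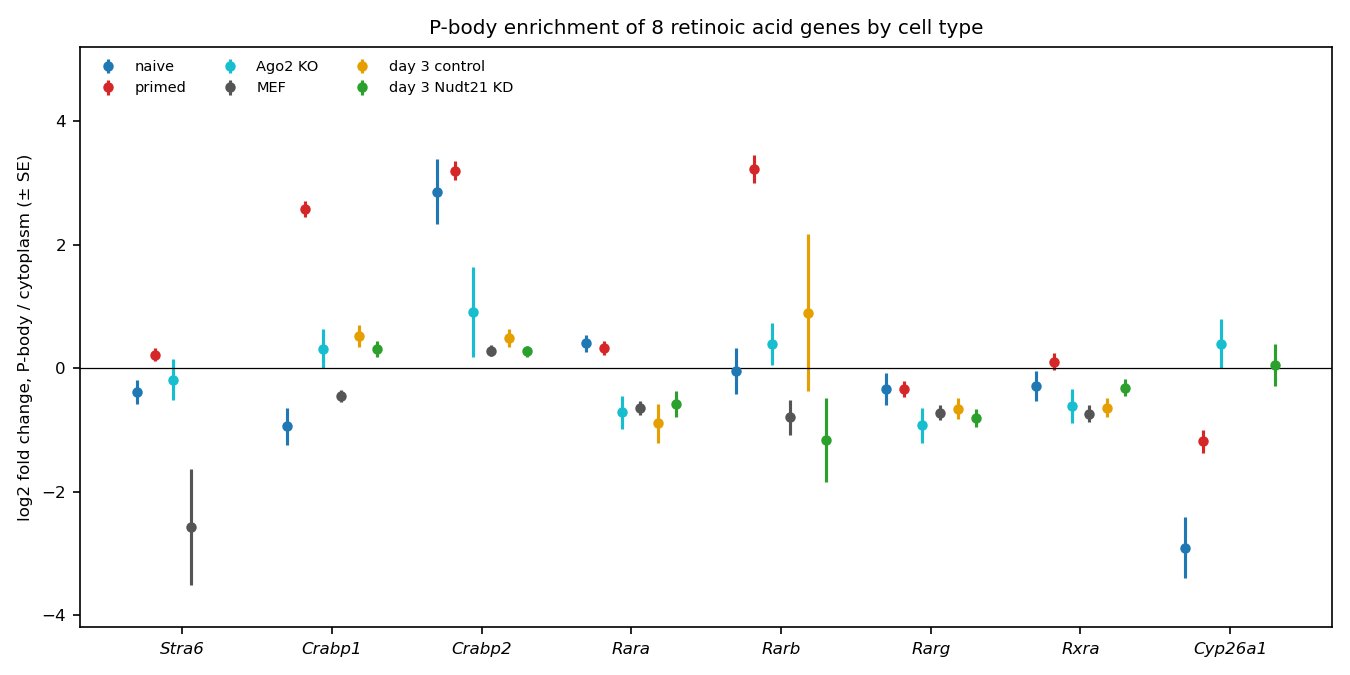
Log2 fold change of P-body over cytoplasm (y axis, ± SE) for each gene in 6 cell types, 2 libraries per fraction. Crabp1 and Rarb stand above 2 in primed cells alone, Crabp2 in both naive and primed cells, and Rarg lies below 0 in each cell type.

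The order of levels per length was read from the longest transcript of each gene (RPKM, the CPM divided by the transcript length in kilobases). In naive cytoplasm the mean level fell from Crabp1 (30.0 RPKM) through Rara (9.02), Rarg (8.54), Stra6 (5.83), Rxra (4.82), Cyp26a1 (4.07) and Rarb (2.85) to Crabp2 (0.387). The ranges of neighbours in this order overlapped, except that Crabp1 at the top and Crabp2 at the bottom stood apart. In primed cytoplasm Cyp26a1 (14.6 RPKM) and Crabp1 (14.5) led with overlapping ranges, and Rarb (0.887) came last. In MEF cytoplasm Crabp1 (190) and Crabp2 (115) stood apart from Rara (11.5) and Rarg (10.4), followed by Rxra (3.51), Rarb (1.05), Stra6 (0.419) and Cyp26a1 (0.0719). No ranges of neighbours overlapped in MEFs.

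Genes with a pattern like that of Crabp1 or Rarb over the 20 naive, primed, MEF and day 3 libraries were ranked by Pearson's r of log2(CPM + 1) among 11677 genes with a mean of at least 5 CPM. Crabp1 was most like Egln1 (r = 0.92), C1qtnf3 (0.92) and Rsu1 (0.91), and Rarb most like Chn1 (0.95), Supt20 (0.94) and Syndig1 (0.92). Between Crabp1 and Rarb themselves r was −0.24. Cyp26a1, with a mean below 5 CPM, was not ranked. Of the other members Crabp2 was most like Crabp1 (0.77), and Stra6 most like Rarb (0.83). These points share libraries and cell types, and the values are descriptions.

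The Ago2 KO compared the same fractions in naive cells without the main microRNA effector. None of the 8 genes was called in P-bodies against cytoplasm by edgeR (quasi-likelihood test, Benjamini-Hochberg adjustment), where 6.51% of 16808 genes were called, and none by DESeq2, which gave no adjusted p for Crabp2. Of the 8, 2 genes, Rara and Rarg, had an unadjusted p under 0.05. Rarg was at 9.28 and 10.4 CPM in P-bodies and 15.3 and 20.9 CPM in the cytoplasm (−0.93 ± 0.29, adjusted p = 0.0909), and Rara at 11.6 and 15.6 CPM against 20.6 and 23.0 CPM (−0.71 ± 0.27, adjusted p = 0.143). For both genes the fractions did not overlap, which held for 26.6% of all genes in this direction. Crabp1 was at 51.4 and 40.0 CPM in P-bodies and 49.4 and 23.9 CPM in the cytoplasm (0.31 ± 0.32, adjusted p = 0.604), and the ranges overlapped. Rarb was at 5.70 and 8.35 CPM against 4.27 and 6.13 CPM (0.39 ± 0.34, adjusted p = 0.541). Crabp2 had 10 and 18 reads against 5 and 9 (0.90 ± 0.73), Cyp26a1 4.99 and 2.80 CPM against 2.99 and 2.79 CPM (0.40 ± 0.40), Rxra 10.4 and 11.7 CPM against 14.3 and 18.6 CPM (−0.62 ± 0.28) and Stra6 3.58 and 3.89 CPM against 3.90 and 4.39 CPM (−0.19 ± 0.33). Without cytoplasm replicate 1, 4 members and 34.6% of all genes were called, Crabp1 higher in P-bodies (0.71) and Rara (−0.98), Rarg (−1.31) and Rxra (−0.97) lower. The cytoplasm library left in that fit is replicate 2, with its 24.0% of Rn18s-rs5. With 1 library left in an arm, here and below, the spread comes from the other group alone and the lone library is assumed to vary like it. With the replicate number as a block Rara and Rarg were called, among 4178 of the 16808 genes. No Ago2 wild-type library was counted in that table, so knockout and wild-type levels were not compared.

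At day 3 of reprogramming Rarb and Stra6 were near the floor of 3 reads. Day 3 control cytoplasm held 4 and 3 reads of Rarb against 96 and 104 in MEF cytoplasm, a pooled ratio of 24.6 in favour of MEFs (exact interval 11.7 to 61.9, counting error only). For Stra6 the same ratio was 17 (6.38 to 63.9). Crabp1 was at 84.7 and 88.7 CPM, below the MEF levels (−0.98 ± 0.07), and Rara at 21.9 and 24.8 CPM (−0.90 ± 0.10). Rxra was at 28.9 and 30.7 CPM (0.63 ± 0.10) and Crabp2 at 134 and 147 CPM (0.23 ± 0.07). Both lay above every MEF cytoplasm library, as did 43.4% of all genes. These MEF contrasts share the levels by which the genes were chosen and carry no test, and 69.3% of all genes were called there.

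Within day 3 control cells, 6 of the 8 genes could be fitted and none was called between P-bodies and cytoplasm, where 0.646% of 15786 genes were. Of the 6, 5 had an unadjusted p under 0.05, and DESeq2 called those 5 among 2105 of the 15786 genes. The share of all genes with an unadjusted p under 0.05 was not counted in any contrast, so nothing is read from such counts. Without P-body replicate 1 edgeR called 5 members and 57.0% of all genes, and without P-body replicate 2 it called 5 members and 31.8% of all genes. In those fits the spread of this pair, which differed more than most, does not enter. Crabp1 (105 and 141 CPM in P-bodies against 84.7 and 88.7) had a log2 difference of 0.52 ± 0.18 (adjusted p = 0.148), and Crabp2 (175 and 214 CPM against 134 and 147) one of 0.48 ± 0.15 (adjusted p = 0.131). Both binding proteins were higher in each P-body library, as were 29.2% of all genes. The receptors Rara (−0.89 ± 0.32), Rarg (−0.66 ± 0.17) and Rxra (−0.64 ± 0.15, adjusted p = 0.0917) were lower in each P-body library, as were 30.6% of all genes. Rarb had 10 and 2 P-body reads.

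With the Nudt21 knockdown, 1 of 7 fitted genes was called between P-bodies and cytoplasm, with 21.9% of all 15995 genes called (12.8% lower in P-bodies). Rarg was lower in P-bodies at 12.4 and 14.5 CPM against 25.2 and 22.0 CPM (−0.80 ± 0.15, adjusted p = 0.00448). Crabp1 (37.4 and 34.2 CPM against 30.7 and 27.4, 0.31 ± 0.12) and Crabp2 (138 and 139 CPM against 113 and 118, 0.27 ± 0.09, adjusted p = 0.0538) lay above their cytoplasm in both libraries without passing the test, with 30.9% of all genes placed likewise. Crabp2 was also called by DESeq2. Without P-body replicate 2 the count was 5 (36.8% of all genes called), without P-body replicate 1 it was 2 (24.1%), and without cytoplasm replicate 1 it was 0 (7.27%), each from an arm of 1 library against 2. The effect of the knockdown on enrichment was tested as the difference of both contrasts, and none of the 8 genes passed in edgeR or DESeq2 (DESeq2 gave no adjusted p for Rarb, Stra6 and Cyp26a1), with 2 of 16973 genes called by edgeR (0.0118%) and 26 by DESeq2. No member had an unadjusted p under 0.05 in that test.

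The level of these genes in the day 3 cytoplasm moved with the Nudt21 knockdown, in the cytoplasm libraries that the P-body contrasts above also use. All 7 genes that could be fitted were called, 3 higher and 4 lower, in a comparison that called 49.6% of 15990 genes (24.6% higher and 25.0% lower). Crabp1 fell from 84.7 and 88.7 CPM to 30.7 and 27.4 CPM (−1.59 ± 0.09, adjusted p = 1.81e-10), the largest drop among the members. Rara fell from 21.9 and 24.8 to 13.4 and 16.0 CPM (−0.69 ± 0.13, adjusted p = 2.34e-04), and Crabp2 (−0.31 ± 0.07) and Rarg (−0.33 ± 0.11) fell slightly. Rxra rose from 28.9 and 30.7 to 39.4 and 34.5 CPM (0.29 ± 0.10, adjusted p = 0.0244). The smaller calls depended on single libraries. Rxra was not called without knockdown replicate 1 (0.20) or control replicate 1 (0.25), and Rarg was not called without replicate 2 of the knockdown (−0.23) or of the control (−0.25), nor by DESeq2. With all groups in a single fit neither was called.

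Cyp26a1 and Rarb had the largest increases among the members in this cytoplasm contrast, both from few control reads. The part of the direct repeats printed above in these increases was not tested. Cyp26a1 had 1 and 1 reads in control cytoplasm and 54 and 42 reads after the knockdown (5.44 ± 0.71, adjusted p = 6.32e-06). The pooled ratio was 48.8, with an exact interval of 13.1 to 408 that covers counting error only. In P-bodies the pooled counts were 7 reads in control and 114 in knockdown cells, a ratio of 12.4 (5.82 to 31.5). Rarb had 4 and 3 reads in control and 16 and 22 reads in knockdown cytoplasm (2.47 ± 0.80, adjusted p = 0.0164), a pooled ratio of 5.52 (2.43 to 14.6). Rarb was not called without replicate 2 of the knockdown (1.93) or of the control (2.29). Top2b moved by −0.29 ± 0.07 in the same contrast. In P-bodies Rarb was at 0.408 and 0.0774 CPM in control and 0.406 and 0.285 CPM in knockdown cells, and the ranges overlapped. The cytoplasmic level of Rarb after the knockdown, 0.520 and 1.04 CPM, was still below the 3.06 and 3.47 CPM of MEF cytoplasm. The summed CPM of the 7 fibroblast markers was 5392 to 5536 in control and 1741 to 1770 in knockdown cytoplasm, and that of the 7 naive markers 315 to 327 and 584 to 693. All 7 fibroblast markers were at 1 CPM or more in each of these libraries. Of the 7 naive markers, 4 reached that level in control and 5 in knockdown cytoplasm, and Esrrb was at 0 in control cytoplasm. The naive markers include Klf4, one of the induced reprogramming factors, so their day 3 sums may hold transgene reads. The part of either marker set in the changes of the retinoic acid genes was not tested.

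Of 41 other genes of the retinoid pathway, 33 could be fitted in that contrast, with 6 called higher and 10 lower. Over all genes 24.6% were called higher and 25.0% lower. The list had a median log2 change of −0.22 against −0.01 over all genes. The members' median was −0.31. Among genes with a mean of at least 10 CPM, those that fell included Fabp5, which encodes a fatty acid binding protein that also carries retinoic acid (−1.17 ± 0.07), and Rdh10, which oxidises retinol (−0.62 ± 0.08). At that level the largest increases were those of the alcohol dehydrogenase gene Adh7 (1.16 ± 0.10), the coactivator Ncoa3 (1.01 ± 0.09) and the retinaldehyde dehydrogenase Aldh1a1 (0.54 ± 0.11). In the knockdown P-body contrast the same list had 4 genes higher and 6 lower of 33, where 9.04% of all genes were called higher and 12.8% lower. The coactivator gene Ncoa2 (−0.72 ± 0.10) and the corepressor gene Nrip1 (−0.64 ± 0.12) were among the lower, and Fabp5 (0.48 ± 0.10) and Adh7 (0.37 ± 0.11) among the higher. In day 3 control cells edgeR called none of 32 list genes and 10 had an unadjusted p under 0.05. The knockdown effect on enrichment had none of 34 list genes called by edgeR and none with an unadjusted p under 0.05. In the Ago2 KO 3 of 32 list genes fitted were called, 2 higher and 1 lower in P-bodies, with 6.51% of all genes called. Those called higher were Meis2 (1.52 ± 0.25) and Nrip1 (1.37 ± 0.26).

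**Figure D3:**
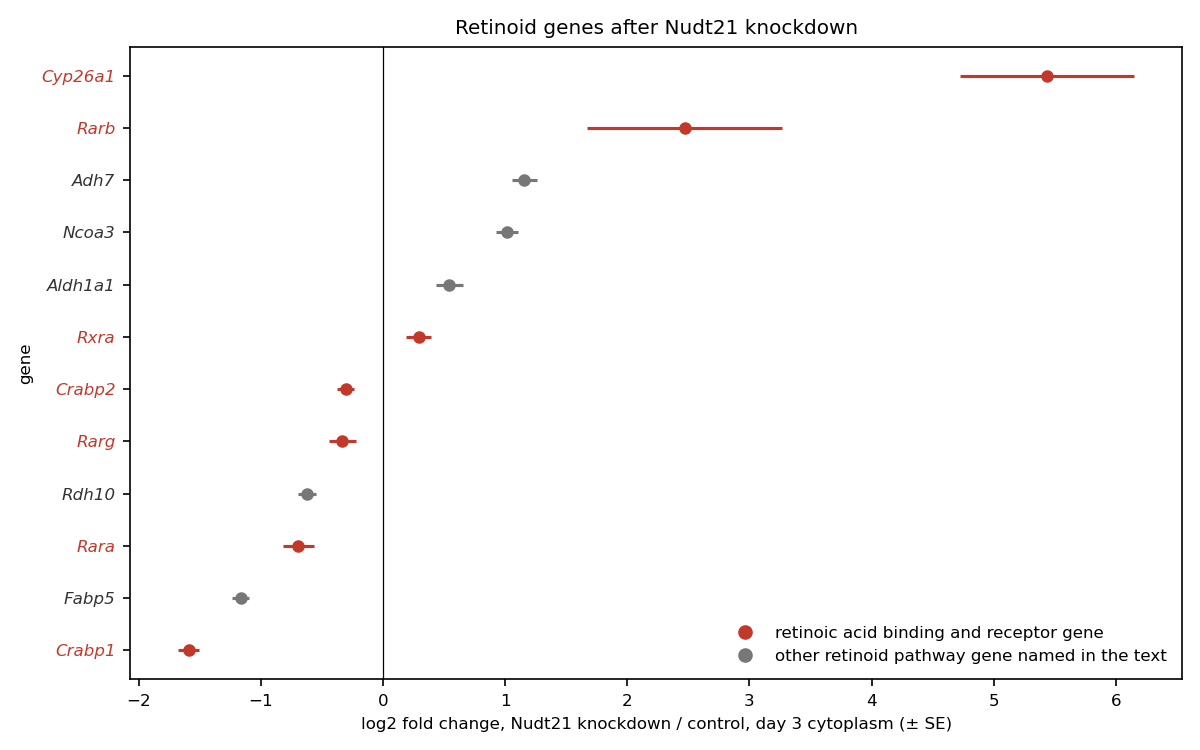
Log2 fold change of Nudt21 knockdown over control in day 3 cytoplasm (x axis, ± SE, 2 libraries per group) for the 7 fitted members (red) and 5 other retinoid genes named in the text (grey). Cyp26a1 and Rarb lie at 5.44 and 2.47, and Crabp1 at −1.59.

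Polysome-bound RNA here was, per the study, a pool of the fractions that held ribosomes. Its log2 difference from total RNA places each transcript relative to the other genes and does not give the share carried by ribosomes. In control ES cells 1 of the 8 genes was called, with 42.9% of 15411 genes called (24.1% lower in polysomes). Stra6 held 3.82, 3.74 and 3.81 CPM in total RNA and 1.77, 2.07 and 2.86 CPM in polysomes (−0.96 ± 0.20, adjusted p = 8.98e-04), and the ranges did not overlap. Crabp1 held 5.02, 6.06 and 6.08 CPM in total RNA and 8.02, 8.12 and 7.66 CPM in polysomes (0.31 ± 0.13, adjusted p = 0.0722). Rara held 31.4, 34.3 and 36.9 CPM in total RNA and 43.5, 47.3 and 39.9 CPM in polysomes (0.19 ± 0.08, adjusted p = 0.0668), with ranges that overlapped once TMM scaling was applied. Without total RNA replicate 3, 4 members and 47.3% of all genes were called, Crabp1 (0.36), Rara (0.25) and Rarg (0.20) joining Stra6.

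In cells without DDX6, 3 of the 8 genes were called, with 50.9% of 15638 genes called (24.0% higher and 26.8% lower). Stra6 held 3.53, 3.42 and 3.42 CPM in total RNA and 1.25, 1.33 and 1.56 CPM in polysomes (−1.52 ± 0.19, adjusted p = 4.61e-07). Rara was higher in polysomes at 46.8, 48.8 and 43.9 CPM against 34.2, 36.6 and 35.9 CPM (0.21 ± 0.06, adjusted p = 0.00508), as was Crabp1 at 8.55, 7.39 and 8.10 CPM against 5.18, 5.66 and 6.27 CPM (0.29 ± 0.12, adjusted p = 0.0463). Crabp1 was not called by DESeq2, nor without replicate 1 or 3 of the polysome or replicate 1 or 2 of the total libraries. The other 5 members had log2 differences from −0.32 (Cyp26a1) to 0.50 (Crabp2) and were not called.

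The difference between both occupancies was tested directly. edgeR called no gene of 16345 (0% of genes) and DESeq2 called 4, none of them a member, and 1 member, Stra6, had an unadjusted p under 0.05 (−0.56 ± 0.26, adjusted p = 0.879). The largest positive value was that of Rarb (0.51 ± 0.28). The total RNA of degron against control cells had no called member in edgeR or DESeq2 (which gave no adjusted p for Crabp2, Rarb and Cyp26a1), with 3.31% of 15380 genes called by edgeR. Rarb was at 1.14, 1.54 and 1.47 CPM in degron and 1.89, 2.18 and 2.50 CPM in control cells (−0.64 ± 0.22, adjusted p = 0.126), and Rarg at 47.7, 53.7 and 51.3 CPM against 55.9, 57.0 and 62.1 CPM (−0.19 ± 0.07, adjusted p = 0.150). For both genes every degron library lay below every control library, as for 11.7% of all genes, and both had an unadjusted p under 0.05.

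Of the other pathway genes, 39 were fitted in control polysomes, with 5 higher and 10 lower, and 37 in degron polysomes, with 6 higher and 8 lower. Over all genes 18.8% were called higher and 24.1% lower in control polysomes, and 24.0% and 26.8% in degron polysomes. In control cells the lower ones included the transglutaminase gene Tgm2 (−0.73 ± 0.12) and Ncoa3 (−0.57 ± 0.07), and the higher ones Fabp5 (0.40 ± 0.09). In degron cells Tgm2 (−1.01 ± 0.09) and Ncoa3 (−0.50 ± 0.05) were again called lower, and Fabp5 (0.36 ± 0.06) and the homeobox gene Cdx1 (0.25 ± 0.06) higher. For the difference between both occupancies edgeR called none of 39 list genes and 1 had an unadjusted p under 0.05. Per length, the mean control total level fell from Rarg (19.8 RPKM) through Rara (10.1), Rxra (7.38), Crabp1 (7.13), Crabp2 (1.79), Stra6 (1.23) and Cyp26a1 (0.854) to Rarb (0.704). The ranges of Rxra and Crabp1 overlapped, as did those of Cyp26a1 and Rarb. These values come from another counting method than the RPKM of naive cytoplasm above and were not compared with it.

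**Figure D4:**
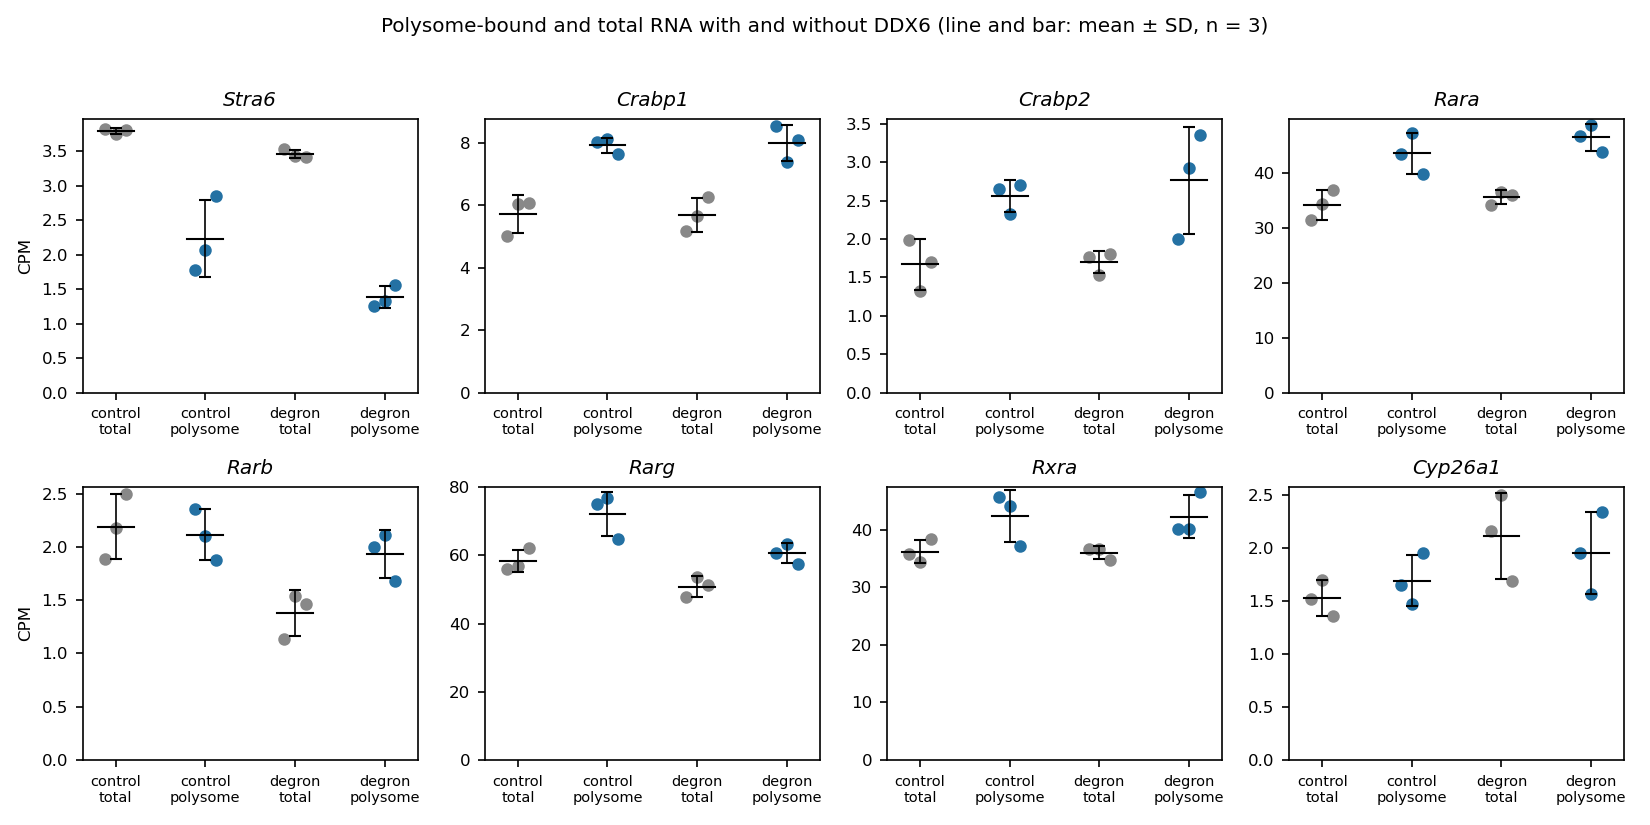
CPM of the 8 genes in polysome-bound (blue) and total RNA (grey) of control and DDX6 degron ES cells, 1 point per library with mean ± SD, n = 3, each axis starting at 0. Stra6 lies lower in polysomes in both conditions, at 1.77 to 2.86 CPM in control and 1.25 to 1.56 CPM in degron cells.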

How the data were processed

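RNA was measured in 36 mouse libraries of 16 groups, named from their titles. For 20 P-body and cytoplasm libraries the authors deposited estimated counts per refGene gene, made from hisat2 alignments to mm10 with featureCounts. For 12 polysome and total libraries the authors deposited expected counts from salmon in an nf-core pipeline, and for 4 Ago2 KO libraries salmon counts with Ensembl identifiers. Values that were not whole (17.6 to 25.7%, 5.05 to 6.19% and 11.6 to 13.1% of values per library) were rounded. The 3 tables were counted differently and tests were run within a table. The 10 tables of the authors' own comparisons, which hold fold changes and p-values from DESeq2, were not used.

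Each comparison was fitted over all genes with at least 10 reads summed over its libraries, with edgeR (4.0.16, R 4.3.3), TMM scaling and the quasi-likelihood test, two-sided, with Benjamini-Hochberg adjustment over all genes tested and a threshold of 0.05. A gene is called when its adjusted p is under that threshold. SEs were derived from the test statistic. Alternatives were DESeq2 (1.42.0), its size factors, other low-count filters, 1 joint fit per table, a block for the replicate number, and each library left out. In simulated data 81.5 to 100% of 4-fold changes were recovered in 7 comparisons, and 1.76 to 7.18% of the calls were false. In each, 200 genes were changed, drawn only from genes above a minimum mean count. Recovery for genes at a few reads, or for changes below 4-fold, was therefore not measured. Each simulated gene had the same dispersion in all libraries, whereas the real replicate pairs differed unequally.

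The members and lists were chosen with earlier results of these data known. Besides the 8 members, a list of 41 retinoid pathway genes is given by counts, naming up to 3 called genes per direction with the largest change among those with a mean of at least 10 CPM. Some genes that this rule would name are not reported here. Gene positions are from GENCODE M21 and promoter sequences from RefSeq. RPKM used the longest transcript. Ratios of low counts have exact 95% intervals, and these and the floor of 3 reads cover counting error only. Replicates differed beyond sampling noise in all 24 pairs (chi-square per degree of freedom 1.82 to 334). The study describes the sequencing replicates as biological, and the labels do not say what they came from.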

Additional observations from a re-analysis of the deposited data

Results flagged for a closer look

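In 4 of the 8 genes every P-body library lay on one side of the cytoplasm libraries in 1 cell type and on the opposite side in another. The same held for 44.3% of the 17298 genes fitted in at least 2 of these 5 cell types, so the count is near that of all genes. These differences were not tested. For Crabp1 the log2 P-body enrichment was −0.95 in naive and −0.46 in MEF cells, opposite to 2.58 in primed, 0.52 in day 3 control and 0.31 in day 3 Nudt21 knockdown cells. For Rara it was 0.40 in naive and 0.32 in primed cells, opposite to −0.65 in MEF, −0.89 in day 3 control and −0.58 in day 3 knockdown cells. Rarb had 3.23 in primed cells, opposite to −0.80 in MEF and −1.17 in day 3 knockdown cells, the last from few reads. Stra6 had −0.38 in naive and −2.57 in MEF cells, opposite to 0.21 in primed cells, and the MEF value was −8.24 or −1.56 without 1 of the P-body libraries.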

How the results depend on the processing

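Of 809 tested values of single genes under the alternatives, 37 changed sign, 15 lost a call and 53 gained one. None of the 37 was a called value. Of 577 untested values, 27 moved by more than the spread between replicates and 22, of 10 genes and contrasts, changed sign. Counts of calls depended on the settings far more than fold changes did, and the causes were not tested.

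For the Ago2 KO, where edgeR called 1095 genes and no member, 716 genes were called with DESeq2 size factors, 1731 by DESeq2 and 2643 without a filter, which also called 1 member. For day 3 control P-bodies (102 genes and no member), DESeq2 called 2105 genes, no filter 1940, filterByExpr 202 and a single fit of all groups 3891, with 5 members called by DESeq2, without a filter and in the single fit. For knockdown P-bodies (1 member), DESeq2 and filterByExpr called 2 members and no filter 3. The knockdown effect on enrichment (2 genes) had 26 genes by DESeq2 and 62 without a filter, and the cytoplasm contrast (7934) had 5282 in the single fit. Primed P-bodies (8209) had 5445 in the single fit. Control polysomes (1 member) had 2 members without a filter and 3 in the single fit. The DDX6 effect on occupancy (0 genes) had 4 by DESeq2 and 16 without a filter, where Crabp1 turned to 0.0037. DDX6 loss in total RNA (509 genes) had 832 by DESeq2, 863 without a filter and 1175 in the single fit.

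The study kept aliquots of the fraction from which each P-body sample was sorted, so P-body and cytoplasm libraries may be paired. The labels do not say whether same-numbered libraries are such pairs. The correlations of their deviations were −0.048, 0.068, −0.0094, 0.136, 0.167 and 0.602 for naive, primed, MEF, day 3 control, day 3 knockdown and Ago2 KO fractions, each from 2 pairs, and with 3 pairs not all were above 0.1. With the replicate number as a block, the Ago2 KO had 4178 genes and 2 members called (Rara and Rarg), day 3 control P-bodies 802 genes, knockdown P-bodies 3 members, the knockdown effect on enrichment 1 gene, the DDX6 effect on occupancy 6 genes and DDX6 loss in total RNA 82 genes, with Crabp1 at −0.0027. The block added Crabp2 to the calls in degron polysomes.

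Leaving out each library in turn gave 446 to 5617 genes and 0 to 4 members for the Ago2 KO, 82 to 8752 genes and 0 to 5 members for day 3 control P-bodies, 1017 to 5729 genes and 0 to 5 members for knockdown P-bodies, 0 to 2185 genes for the knockdown effect on enrichment, 1 to 4 members for control polysomes, 0 to 52 genes for the DDX6 effect on occupancy and 6 to 3373 for DDX6 loss in total RNA. The highest of these counts came without Ago2 KO cytoplasm replicate 1, day 3 control P-body replicate 1 (both day 3 control and the effect on enrichment), knockdown P-body replicate 2 and control total replicate 3. Genes called ranged from 2056 to 10018 for naive P-bodies, 5595 to 9976 for MEF P-bodies, 2293 to 7089 for primed minus naive enrichment and 2242 to 9799 for primed against naive cytoplasm. Medians of the members ranged from −0.51 to 0.064 for naive P-bodies, −0.42 to 0.08 for primed against naive cytoplasm, −0.16 to 0.30 for MEF against naive cytoplasm and −0.99 to −0.81 for day 3 control against MEF cytoplasm.

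Tested genes that changed sign when a library was left out had these ranges. In the Ago2 KO they were Crabp1 (−0.094 to 0.71), Cyp26a1 (−0.077 to 0.76) and Rarb (−0.030 to 0.73). For knockdown P-bodies Cyp26a1 ranged from −0.27 to 0.31. For the knockdown effect on enrichment Crabp1 ranged from −0.40 to 0.059, Cyp26a1 from −2.62 to 3.22 and Rara from −0.066 to 0.92. In control polysomes Cyp26a1 ranged from −0.17 to 0.070, and in degron polysomes Rxra from −0.028 to 0.083. For the DDX6 effect on occupancy the ranges were −0.074 to 0.068 (Crabp1), −0.090 to 0.25 (Crabp2), −0.046 to 0.074 (Rara) and −0.094 to 0.019 (Rxra). For DDX6 loss in total RNA they were −0.085 to 0.061 (Crabp1), −0.13 to 0.17 (Crabp2), −0.00034 to 0.12 (Rara) and −0.046 to 0.040 (Rxra).

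The untested values that changed sign ranged, over all alternatives, in naive P-bodies from −0.46 to 0.54 (Rarb), −0.65 to 0.084 (Rarg) and −0.56 to 0.043 (Rxra), and in primed P-bodies from −0.052 to 0.24 (Rxra). For primed minus naive enrichment they were −0.065 to 0.88 (Crabp2), −0.12 to 0.13 (Rara) and −0.27 to 0.45 (Rarg), for primed against naive cytoplasm −0.67 to 0.062 (Rarg) and −0.50 to 0.10 (Rxra), and for MEF against naive cytoplasm −0.51 to 0.10 (Rxra).

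With 2 libraries a group, a fit that leaves 1 out has 1 library in an arm and takes the spread from the other groups. With 2 libraries a group, and with Rarb, Stra6 and Cyp26a1 at a few reads in day 3 libraries, smaller differences of these genes could not be resolved at this depth.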

Other observations

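Markers of other cell types differed between the same groups. Over 5 primed markers the summed level was 630 to 726 CPM in primed cytoplasm and 43.7 to 82.0 CPM in naive cytoplasm. Over 7 primitive endoderm markers, which include the basement membrane gene Col4a1, it was 290 to 327 CPM in primed and 44.9 to 46.6 CPM in naive cytoplasm. Over 5 neuroectoderm markers it was 48.8 to 49.3 CPM in primed and 16.1 to 30.6 CPM in naive cytoplasm. Their part in the levels of the retinoic acid genes was not tested.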
